A study of Mus musculus with 12 samples.

Results

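The miR-30 family was measured by miRNA-Seq in frontal cortex (FCx) and in hippocampus (HP) of the mouse. Its members were taken by name as mmu-miR-30a, mmu-miR-30b, mmu-miR-30c, mmu-miR-30d and mmu-miR-30e, 5 of the 469 miRNAs that the files list, and all 5 passed the filter that left 431 miRNAs for testing. Total RNA came from untreated male C57BL/6J mice at 8 weeks of age, and the tissue of 3 mice was pooled for each region. FCx was cortical tissue cut from a coronal slice, and HP was the whole hippocampus. From each of the 2 RNA pools 3 libraries were made, which differ in an index of 6 bases at the end of the 5′ adaptor, and every library was run in a lane of its own and again in a lane shared by the region. The counts of both runs were summed, which gave 3 libraries per region (n = 3, indexes 3, 7 and 11). Spread between the libraries of a region is therefore technical, no difference between animals was measured, and p-values compare libraries of 2 RNA pools.

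A miRNA is cut from a hairpin transcript and guides Argonaute proteins to messenger RNAs, which it represses mainly through its seed, bases 2 to 8 from the 5′ end. Family members share the seed and therefore most predicted targets, while the rest of the sequence differs. In the miR-30 hairpins the arm nearer the 5′ end gives the guide, called miR-30a to miR-30e here, and the other arm gives the star form. The family is widely expressed in mammalian tissues, and miR-30a is known as a repressor of Beclin 1, a protein of autophagy.

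The mature sequences show how much of the 5′ end the members have in common, which is the part that an index is ligated to. They are taken from RefSeq (GRCm38.p6), written 5′ to 3′ with the seed in capitals. miR-384-5p, a brain miRNA studied in synaptic plasticity, is shown with them because its seed is the same.
miR-30a: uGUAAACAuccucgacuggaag
miR-30e: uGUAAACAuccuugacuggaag
miR-30c: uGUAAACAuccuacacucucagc
miR-384-5p: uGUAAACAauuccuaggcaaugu
Of the 5 members, 3 were matched to that table, and the statements on sequence cover these and miR-384-5p. miR-30a and miR-30e differ by 1 substitution, C13U (miR-30a first, counted from the 5′ end). miR-30c shares the first 12 bases with both, and miR-384-5p the first 8 bases. The index bases that precede the miRNA in the ligated molecule are uuaggc for index 3, cagauc for index 7 and ggcuac for index 11, so the junction is c followed by u in every library for these 4 miRNAs.

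The star forms of 2 hairpins are shown as well, since both were counted in every library.
miR-30a*: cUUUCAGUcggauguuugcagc
miR-30e*: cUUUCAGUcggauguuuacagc
They differ by G18A only (miR-30a* first) and share the seed UUUCAGU with no other name in the table, which has no entry for miR-30b* and miR-30d*. Reads were aligned with up to 2 mismatches, so a read of miR-30a can be counted for miR-30e or the reverse, and the same is true of their star forms. Values of miR-30e and miR-30e* are uncertain for that reason, because each has a close relative that was counted more often in all 6 libraries.

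The family comes from 6 hairpins, which lie in 3 pairs on the NCBIM37 genome. Mir30a (chr1:23279108-23279178, + strand) and Mir30c-2 (chr1:23298540-23298623, + strand) are separated by 19361 bases and lie in no annotated gene. Mir30c-1 (chr4:120442139-120442227, - strand) and Mir30e (chr4:120445211-120445302, - strand) are 2983 bases apart. Both lie in introns of Nfyc, which encodes a subunit of the transcription factor NF-Y, on the strand of the gene. Mir30b (chr15:68168977-68169072, - strand) and Mir30d (chr15:68172770-68172851, - strand) have 3697 bases between them and no gene around them. Mature miR-30c is encoded by Mir30c-1 and by Mir30c-2, and its count does not separate them.

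The libraries held from 391410 to 1461732 counts on miRNAs in FCx and from 3206221 to 4956117 in HP, so low values of FCx rest on fewer reads. The neuronal miRNAs miR-124, miR-128 and miR-9 were detected in both regions, with a summed level of 241123 to 271724 CPM (counts per 1000000 counts on miRNAs) in FCx and 103071 to 167715 CPM in HP. Epithelial miRNAs also differed, with all 8 listed ones present in FCx at a sum of 1478 to 5702 CPM, against 24.7 to 134 CPM in HP, where miR-96 was at 0. The 6 miRNAs of choroid plexus and ependyma summed to 56.7 to 102 CPM in FCx and 108 to 276 CPM in HP. The sums overlapped between the regions for oligodendrocytes (2 miRNAs, 529 to 1597 and 406 to 2307 CPM), endothelium (2 miRNAs, 74.6 to 113 and 89.6 to 150 CPM), blood (3 miRNAs, 64.4 to 172 and 35.0 to 165 CPM) and myeloid cells (3 miRNAs, 7.53 to 17.9 and 6.41 to 21.2 CPM). Except miR-96, no listed miRNA was at 0 in a whole region. Depth and the neuronal, epithelial and ependymal lists thus moved with the region, and their part in the differences below was not tested. In tissue RNA, fewer cells that make a miRNA and less of it per cell cannot be told apart.

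miR-30a and miR-30d made up most of the family, and both had a higher level in FCx than in HP when libraries with the same index were compared. miR-30b had the opposite direction in every index, and miR-30c and miR-30e had no common direction. These differences between the regions were smaller than those between the indexes of 1 region. Members passed the test only when the index was included in the model, and which members passed depended on how the libraries were scaled.

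In FCx, miR-30a was at 7011, 6789 and 2963 CPM with index 3, 7 and 11. In HP it was at 3621, 5080 and 1478 CPM. The FCx library was the higher one in each index, but the ranges overlapped, since the FCx library with index 11 lay below 2 of the HP libraries. The mean was 5587 ± 2276 CPM in FCx (SD, n = 3) and 3393 ± 1812 CPM in HP.

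miR-30d was at 3334, 6591 and 1527 CPM in FCx with index 3, 7 and 11. The HP libraries held 1562, 4465 and 722 CPM of it. As for miR-30a, FCx was higher in every index and the regions overlapped. miR-30a exceeded miR-30d in all 6 libraries, by the least in FCx with index 7, where their counts were 9924 and 9634.

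miR-30c was at 1254, 147 and 369 CPM in FCx with index 3, 7 and 11 and at 1411, 198 and 361 CPM in HP. Its levels in the regions were close in each index, and a large range separated the indexes. miR-30e, which has all but 1 base in common with miR-30a, was at 404, 518 and 75.1 CPM in FCx and at 347, 555 and 97.7 CPM in HP. It was above HP in FCx with index 3 and below it with indexes 7 and 11, but the exact counting intervals of the regions overlapped in each index.

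miR-30b was the least abundant member, with 97.1, 12.3 and 26.1 CPM in FCx for index 3, 7 and 11. In HP it was at 130, 23.4 and 39.5 CPM. HP was higher in each index. The FCx values rest on 38, 18 and 17 counts, so that their exact counting intervals were wide, for example 7.30 to 19.5 CPM with index 7. In each index this interval overlapped that of HP, which was 19.3 to 28.1 CPM with index 7.

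By the mean of the libraries the order in both regions was miR-30a, miR-30d, miR-30c, miR-30e and miR-30b. The neighbours miR-30c (FCx 590 ± 586 CPM, HP 657 ± 659 CPM) and miR-30e (332 ± 230 and 333 ± 229 CPM) did not differ beyond their SD, and with index 7 their order was reversed in both regions. Neither did miR-30a and miR-30d (3817 ± 2566 CPM in FCx and 2250 ± 1964 CPM in HP), although miR-30a was the higher one in all 6 libraries. These SD are a spread over the indexes, which the members share. miR-30b (45.2 ± 45.5 and 64.3 ± 57.5 CPM) was below every other member in all 6 libraries. miR-384-5p, of the same seed, was at 322, 7.53 and 42.9 CPM in FCx and at 434, 13.5 and 68.3 CPM in HP with index 3, 7 and 11.

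**Figure D1:**
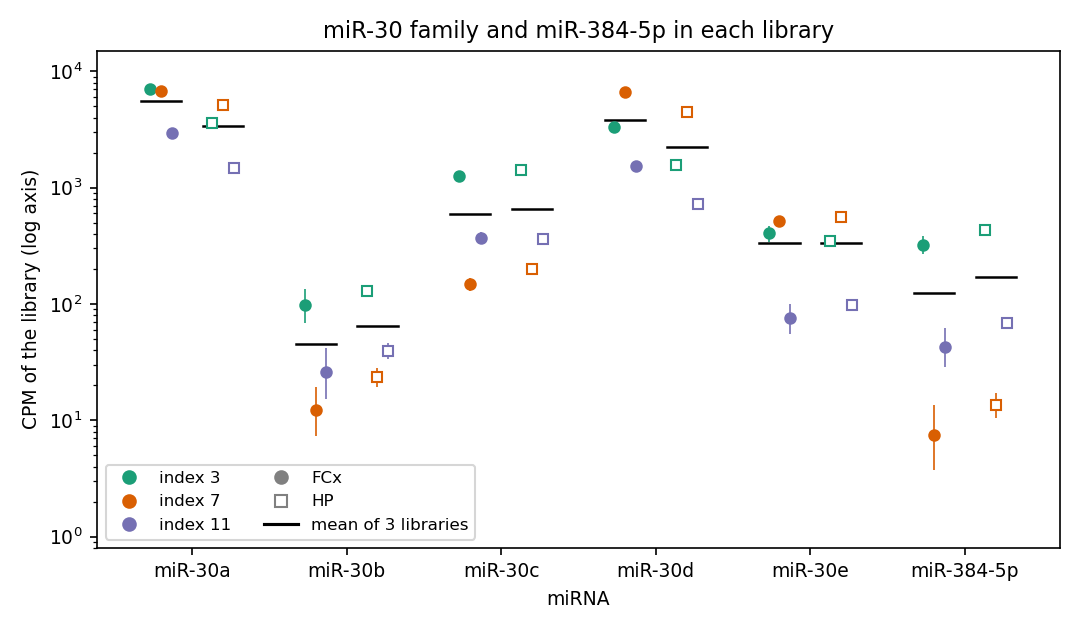
Level of each member and of miR-384-5p (CPM, log axis) in the 6 libraries, with colours for the index, filled circles for FCx, open squares for HP, vertical lines for the exact 95% counting interval and black bars for the mean of 3 libraries. miR-30a and miR-30d are highest, and the libraries of 1 region lie farther apart than the means of the regions.

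As a sum, the family took up 1.21%, 1.41% and 0.496% of the miRNA counts in FCx with index 3, 7 and 11. The share was 0.707%, 1.03% and 0.270% in HP. FCx was higher in every index, with a mean of 1.04% ± 0.479 (SD, n = 3) against 0.670% ± 0.383. Without regard to the index the regions overlapped, and the exact permutation test gave p = 0.4 (two-sided, 12 quantities tested, adjusted p = 0.75). With 3 libraries against 3, this test cannot give a p under 0.1. It does not pair the libraries by index, so the spread over the indexes enters its p here and below. Wilson's 95% interval of the lowest FCx share was 0.479% to 0.513%, and these intervals cover counting error only, since the reads carry no molecular identifiers.

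The composition of the family differed between the indexes in both regions. miR-30a held 57.9%, 48.3% and 59.7% of the family's counts in FCx with index 3, 7 and 11, and 51.2%, 49.2% and 54.8% in HP. It was the most frequent member in all 6 libraries.

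miR-30d took 27.6%, 46.9% and 30.8% of the family counts in FCx, and 22.1%, 43.3% and 26.8% in HP. Per 100 counts of miR-30a there were 47.6, 97.1 and 51.5 counts of miR-30d in FCx and 43.1, 87.9 and 48.8 in HP. miR-30d was thus nearly as frequent as miR-30a with index 7 in both regions, and FCx was the higher region in each index.

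miR-30c had its lowest share with index 7. It made up 10.4%, 1.05% and 7.45% of the family in FCx and 19.96%, 1.92% and 13.4% in HP, so that its share was higher in HP in each index. The share of miR-30e in FCx was 3.34%, 3.68% and 1.51%, and in HP it reached 4.91%, 5.38% and 3.62%. For miR-30b it was 0.802%, 0.0876% and 0.525% in FCx, against 1.84%, 0.227% and 1.46% in HP.

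The shares of miR-30b, miR-30c and miR-30e were lower in FCx in each of the 3 indexes, and that of miR-30d was higher. Shares within a family add up to a fixed total, so these are not separate differences. By the exact permutation test over the libraries (two-sided, unpaired), p was between 0.2 for miR-30e and 0.5 for miR-30d, and the adjusted p was 0.75 for each member. Differences within an index were not tested for the shares.

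**Figure D2:**
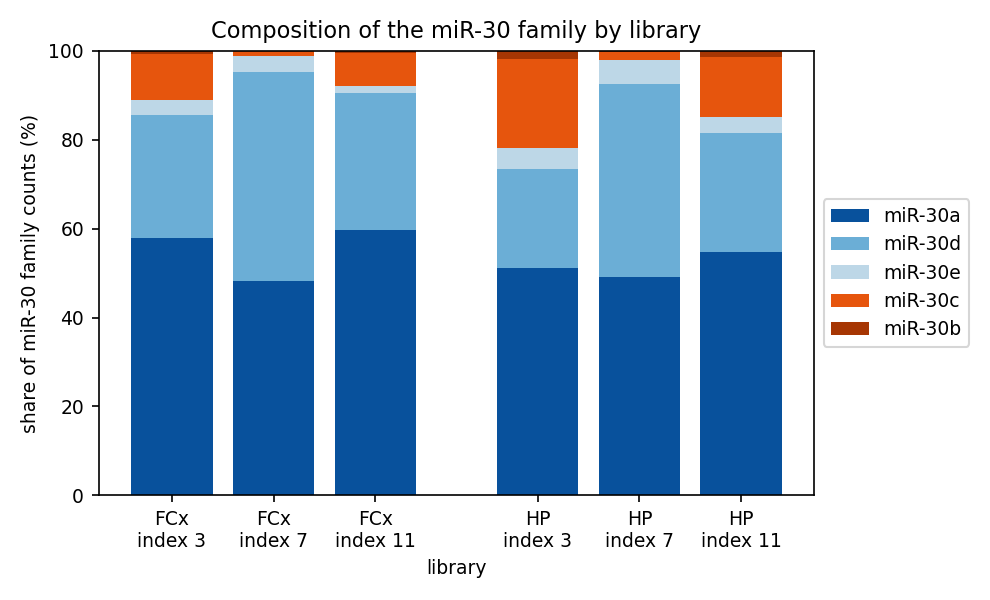
Share of the miR-30 family counts held by each member (%, stacked bars from 0 to 100) in each library, 3 of FCx on the left and 3 of HP on the right. miR-30d fills more of the bar with index 7 in both regions, and miR-30c nearly disappears there.

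Differential expression of FCx against HP was tested over all 431 miRNAs by the quasi-likelihood test of edgeR, with Benjamini-Hochberg adjustment and an adjusted p under 0.05 as the threshold. Without the index in the model 0.464% of the miRNAs passed and none of the members did. The log2 fold change (FCx over HP) was 0.41 for miR-30a (standard error 0.69), 0.60 for miR-30d (0.85), -0.24 for miR-30e (0.91), -0.78 for miR-30c (0.92) and -1.16 for miR-30b (0.98). The adjusted p was 0.992 for each, and the standard error exceeded each change except that of miR-30b. At an unadjusted p under 0.05, 17 of the 431 miRNAs passed and again no member, the lowest p being 0.261 for miR-30b (edgeR).

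When index was entered as a block, so that each FCx library was set against the HP library of its own index, 5.10% of all miRNAs passed as higher in FCx and 12.8% as higher in HP. Of the members only miR-30b passed, at a log2 fold change of -1.08 (standard error 0.32, edgeR's adjusted p = 0.00689). miR-30a was at 0.37 (0.29, adjusted p = 0.466) and miR-30d at 0.49 (0.29, adjusted p = 0.266).

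This fit scales the libraries with TMM, which moved the median log2 fold change of all miRNAs to -0.38. With library totals in place of TMM the median was -0.01, and 8.35% of the miRNAs passed as higher in FCx against 4.64% as higher in HP. Among the former were 2 members, miR-30a at 0.79 on the log2 scale (standard error 0.24, edgeR's adjusted p = 0.0136) and miR-30d at 0.91 (0.26, adjusted p = 0.00510). miR-30b was at -0.63 (0.33, adjusted p = 0.248) in that fit.

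Relative to the median of all miRNAs, the members hardly moved between the scalings. miR-30a lay above the median by 0.76 with TMM and by 0.80 with library totals, and miR-30d by 0.88 and 0.92. miR-30b lay at -0.69 and -0.63 from the median, miR-30c at -0.23 and -0.18, and miR-30e at -0.10 and -0.07. The median of the 5 members was -0.48 with TMM and -0.08 with library totals, near that of all miRNAs in both fits.

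The members' calls were not the same in all subsets of the libraries. Fits without an index have fewer libraries and less power, so a lost call alone does not show dependence on that index. In the blocked fit with TMM, miR-30b no longer passed when both libraries of index 3, 7 or 11 were left out, at log2 fold changes of -0.998, -0.87 and -0.68 (edgeR's adjusted p from 0.112 to 0.203). It passed with the individual lanes alone (adjusted p = 0.00132, edgeR), as did miR-30d (adjusted p = 0.0460), and no member passed with the pooled lanes alone.

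In the blocked fit with library totals, miR-30a was at 0.71, 0.98 and 0.69 on the log2 scale without index 3, 7 and 11. edgeR's adjusted p was 0.224, 1.94e-05 and 0.472. For miR-30d the log2 fold change was 0.82, 1.09 and 0.83 (adjusted p of 0.138, 4.53e-06 and 0.369 by edgeR). Both calls therefore held without index 7 and were lost without index 3 or 11, while the fold changes remained of similar size. With the individual lanes alone both members passed (adjusted p of 0.0293 and 0.0103, edgeR), and with the pooled lanes alone miR-30d did (0.0372) and miR-30a did not (0.0646).

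Within each index, the ratio of FCx over HP was also taken directly from the CPM, with 1 CPM added to both. For miR-30a the FCx level was 1.94, 1.34 and 2.004 times the HP level with index 3, 7 and 11. For miR-30d it was 2.13, 1.48 and 2.11 times. These log2 ratios were above those of 81.2%, 81.0% and 84.2% of the miRNAs for miR-30a and of 84.7%, 85.6% and 87.2% for miR-30d.

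miR-30b was at 0.748, 0.546 and 0.669 times its HP level, and miR-30c at 0.889, 0.745 and 1.02 times. For miR-30e the ratio was 1.16, 0.933 and 0.771. The ratio of both major members was lowest with index 7, where the median log2 ratio of all miRNAs was lowest too, at -0.21 against 0.09 with index 3 and 0.03 with index 11.

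A miRNA was higher in FCx in all 3 indexes in 19.7% of all cases, and 2 of the 5 members were. The opposite held for 18.6% of all miRNAs and for 1 of the 5 members. The median log2 ratio of the members was 0.22, -0.10 and 0.03 in the order of the indexes.

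**Figure D3:**
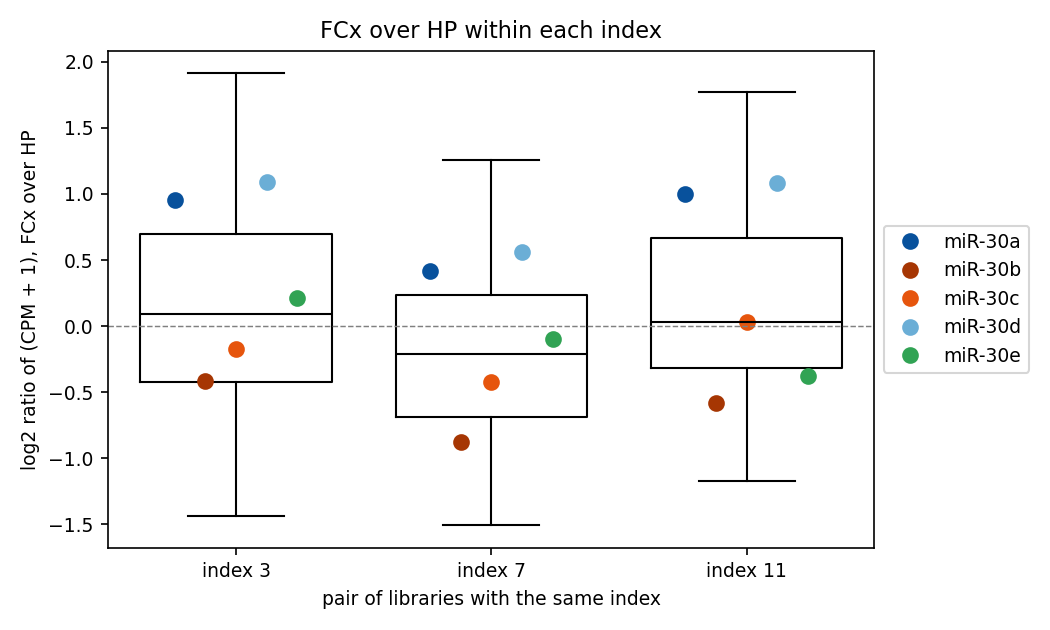
Log2 ratio of CPM + 1, FCx over HP, for the pair of libraries with each index. Points are the 5 members, and boxes show the median and quartiles of all 431 miRNAs with whiskers from the 5th to the 95th percentile. miR-30a and miR-30d lie above the upper quartile and miR-30b at or near the lower quartile or below it in each index.

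By the index with the lowest level, the members fell into 2 profiles, and these followed neither the seed nor the genomic pairs. miR-30a, miR-30d and miR-30e were lowest with index 11 in both regions. miR-30d and miR-30e were highest with index 7, whereas miR-30a was highest with index 3 in FCx and with index 7 in HP. miR-30b and miR-30c were highest with index 3 and lowest with index 7 in both regions, as was miR-384-5p.

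Each index occurs once per region, and its effect was tested over the 6 libraries with the region in the model. All 5 members passed (edgeR's quasi-likelihood test of both index coefficients, adjusted p under 0.05), where 61.3% of all 431 miRNAs did. The adjusted p was 2.78e-11 for miR-30c, 1.25e-09 for miR-30e, 3.84e-09 for miR-30d, 8.02e-09 for miR-30b and 0.00286 for miR-30a. Being called here is thus common among all miRNAs. The call of miR-30a was lost without the FCx library of index 3 (adjusted p = 0.0613, edgeR), without the FCx library of index 11 (0.230) and without the HP library of index 11 (0.119), whereas the other members remained under the threshold in every alternative, with a highest adjusted p of 0.0154 for miR-30e.

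Between index 7 and index 3, the log2 fold change was -2.62 for miR-30c (standard error 0.37, edgeR's adjusted p = 3.80e-11) and -2.43 for miR-30b (0.39, adjusted p = 6.24e-09). It was 1.60 for miR-30d (0.37, adjusted p = 7.06e-05) and 0.89 for miR-30e (0.34, adjusted p = 0.0269). miR-30a did not pass, at 0.57 (0.36, adjusted p = 0.220). The call of miR-30e was lost in 10 of 13 alternatives, where its adjusted p (edgeR) ran from 0.0515 to 0.479, whereas the calls of miR-30b, miR-30c and miR-30d held in all 13. The same change of index thus went with lower counts of miR-30b and miR-30c and higher counts of miR-30d. For miR-384-5p the log2 fold change was -4.94 (0.41, adjusted p = 3.32e-28). Between index 11 and index 3, every member was lower with index 11. The log2 fold change was -1.57 for miR-30e (0.36, edgeR's adjusted p = 7.46e-05) and -1.37 for miR-30c (0.35, adjusted p = 0.000639). For miR-30b it was -1.28 (0.37, adjusted p = 0.00266). miR-30a (-0.76, 0.36, adjusted p = 0.0814) and miR-30d (-0.62, 0.36, adjusted p = 0.179) did not pass. Calls were lost in 1 (miR-30e) or 2 of 13 alternatives, while miR-30a passed in 6 and miR-30d in 2.

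Between index 7 and index 11, miR-30e was higher by 2.45 on the log2 scale (0.37, edgeR's adjusted p = 2.47e-10), miR-30d by 2.21 (0.37, adjusted p = 2.32e-08) and miR-30a by 1.33 (0.37, adjusted p = 0.000806). miR-30c was at -1.25 (0.36, adjusted p = 0.00123) and miR-30b at -1.15 (0.40, adjusted p = 0.00859). miR-30e and miR-30c, which have the same 12 bases at the 5′ end, differed in direction here, and both calls held in all 13 alternatives. What part the sequence has in this was not tested, and counts of miR-30e can include reads of miR-30a. The call of miR-30b was lost with library totals, with the pooled lanes and without the HP library of index 7 (edgeR's adjusted p from 0.0631 to 0.0648), and that of miR-30a without the FCx or the HP library of index 11 (0.126 and 0.0591).

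The highest library held 8.53 times the lowest for miR-30c in FCx and 7.14 times in HP. For miR-30a this range was the smallest of the family, 2.37-fold and 3.44-fold. Over the 139 miRNAs whose mean reached 100 CPM, the median range was 4.32-fold in FCx and 3.85-fold in HP. A second run of the same library was closer by the median. The pooled and the individual lane differed by a median of 0.062 (miR-30a) to 0.32 (miR-30b) on the log2 scale. The largest difference was 1.16 for miR-30b, in FCx with index 11 on 10 and 7 counts, and 0.82 for miR-30d. The latter arose in HP with index 3, at 1223 CPM in the individual and 2154 CPM in the pooled lane.

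**Figure D4:**
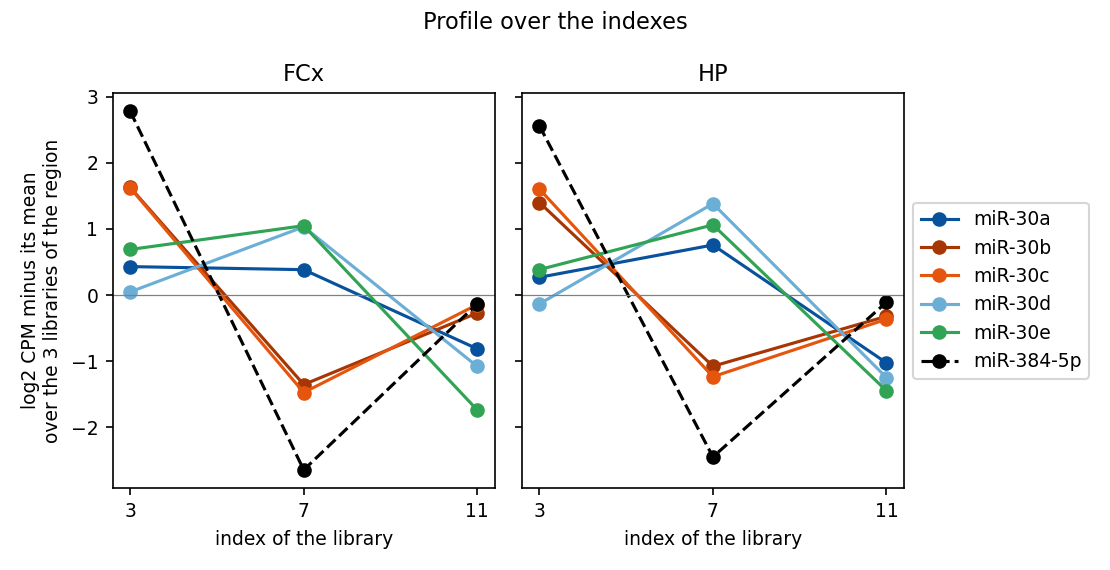
Log2 CPM of each member and of miR-384-5p (dashed), minus its mean over the 3 libraries of the region, by index. Lines join the libraries of 1 miRNA and carry no order. miR-30b, miR-30c and miR-384-5p fall from index 3 to index 7, while miR-30d and miR-30e are highest with index 7, in FCx and again in HP.

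As a description over the 6 libraries, which share the indexes, Pearson's r of log2 CPM was 0.98 between miR-30b and miR-30c and 0.93 between miR-30a and miR-30d. Members whose hairpins are neighbours were not alike, with r = -0.02 for miR-30a and miR-30c, -0.04 for miR-30c and miR-30e and -0.41 for miR-30b and miR-30d. miR-384-5p was close to miR-30c (0.99) and to miR-30b (0.98).

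Outside the family, 132 miRNAs had a mean of 100 CPM or more and were compared in the same way. The profile most like that of miR-30a was miR-139-5p (r = 0.986), followed by miR-434-5p and miR-543. For miR-30d it was miR-31 (0.997), then let-7d and miR-129-5p, and for miR-30e miR-337-5p (0.995), then miR-221 and miR-103. miR-30c was most like miR-23b (0.996), miR-125b-5p and miR-376b, and miR-30b most like miR-376b (0.981), miR-23b and miR-340-5p. With 3 indexes in both regions such values are easily high, and no test was made.

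Reads of the guide and of the star form come from the same hairpin but differ in sequence, so the share of the 3′ arm was counted in the genome alignments. For Mir30a it was 18.4%, 3.72% and 25.3% in FCx with index 3, 7 and 11 and 20.5%, 15.5% and 31.5% in HP. The 3′ arm share was lower in FCx in each index, and FCx with index 7 had the lowest share of the 6 libraries.

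At Mir30e the 3′ arm, which gives miR-30e*, held 68.0%, 15.8% and 87.0% of the reads in FCx and 70.7%, 49.2% and 75.1% in HP. The star form was thus the more frequent arm in 4 of the 6 libraries and the guide in FCx with index 7. In HP with index 7 the arms had 2616 and 2529 reads, and Wilson's 95% interval of the 3′ share, 47.8% to 50.5%, includes equal use. Of 805 reads at Mir30e in FCx with index 7, 127 were on the 3′ arm, for which Wilson's 95% interval is 13.4% to 18.5%. By the exact permutation test (two-sided, unpaired) the regions gave p = 0.5 for Mir30a and p = 0.8 for Mir30e, with an adjusted p of 0.75 and 0.8.

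The counts of the star forms followed these shares only in part. miR-30a* was at 1702, 264 and 1064 CPM in FCx and at 987, 983 and 723 CPM in HP with index 3, 7 and 11. miR-30e* was at 800, 93.0 and 434 CPM in FCx and at 801, 533 and 296 CPM in HP. Both were low in FCx with index 7, a library in which their guides were high. With indexes 3 and 11 miR-30a* was higher in FCx, where the 3′ arm share of Mir30a was lower. In HP both were lowest with index 11, where the arm shares were highest.

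Of the other hairpins, Mir30d had nearly all its reads on the guide arm in these libraries. On its 3′ arm lay 0 of 1299, 5 of 9548 and 0 of 988 reads in FCx, where a count of 0 allows a share of up to 0.231% with index 3 and 0.304% with index 11. In HP the share was 0.282%, 0.0456% and 0.241%. No row of the count files is named miR-30d*, although 36 alignments in all lay on that arm.

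At Mir30b, 6 of 22 reads were on the 3′ arm in FCx with index 7 (27.3%) and 40 of 154 in HP with index 7 (25.97%). With index 3 there were 0 of 37 reads in FCx, which allows a share of up to 8.11%, and 4 of 409 in HP (0.978%). With index 11 there were 0 of 15 in FCx, which allows up to 20%, and 0 of 156 in HP, which allows up to 1.92%. In HP miR-30b* was therefore most frequent with the index that gave the lowest CPM of miR-30b.

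miR-30c-2* was at 25.5, 1.37 and 46.0 CPM in FCx and at 39.3, 1.82 and 35.3 CPM in HP, and miR-30c-1* at 30.7, 2.74 and 12.3 CPM in FCx and at 27.4, 3.03 and 4.93 CPM in HP. Both were lowest with index 7, like their guide miR-30c. The star forms tell the 2 hairpins of miR-30c apart, and with index 11 that of Mir30c-2 was the more frequent in both regions. Reads of miR-30c itself fit both hairpins, so their division in the alignments (5702 reads at Mir30c-2 and 2130 at Mir30c-1) shows only where the alignment placed them.

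**Figure D5:**
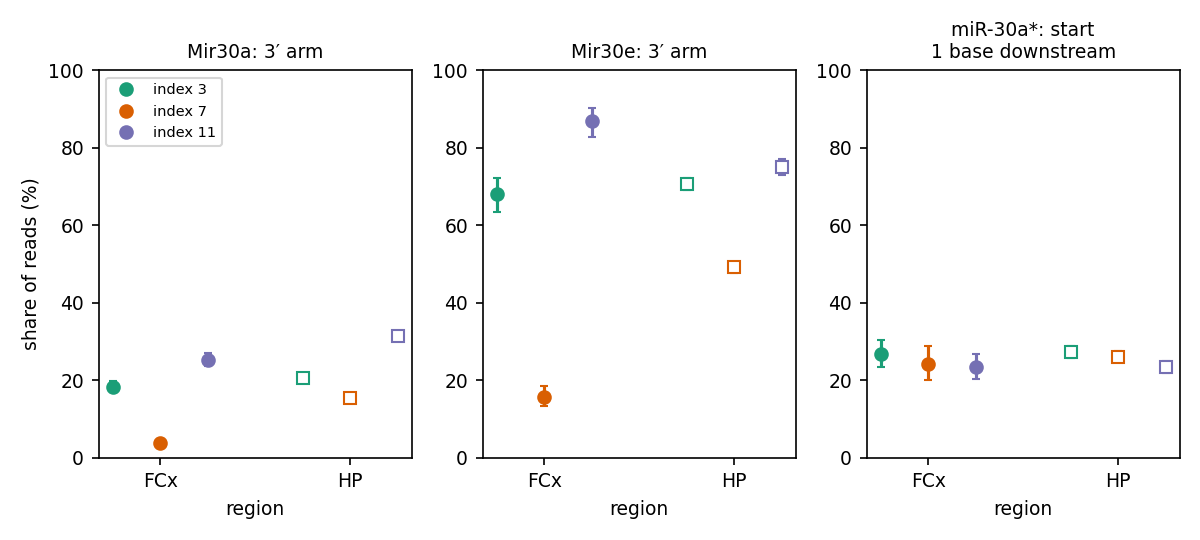
Share of reads (%) on the 3′ arm of Mir30a and of Mir30e, and share of miR-30a* reads that start 1 base downstream of the annotated start, in each library with Wilson's 95% interval (filled circles FCx, open squares HP, colours for the index). The share of the 3′ arm spans 15.8% to 87.0% at Mir30e, while the downstream start of miR-30a* stays between 23.3% and 27.3%.

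The 5′ end of a read sets the seed of the miRNA. On the guide arm of every hairpin at least 96.3% of the reads of all libraries started at 1 base, which for miR-30a, miR-30c and miR-30e is the start of the RefSeq sequence printed above. For miR-30a 1.10%, 4.44% and 3.54% of the reads started 1 base downstream in FCx with index 3, 7 and 11, and 0.825%, 3.69% and 3.56% in HP. That share was lowest with index 3 in both regions, and the exact permutation test between the regions gave p = 0.7 (two-sided).

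The star form of Mir30a had 2 frequent starts. Of its reads 26.8%, 24.2% and 23.3% started 1 base downstream of the annotated start in FCx, and 27.3%, 26.1% and 23.3% in HP. Counted from that start, bases 2 to 8 are UUCAGUC in place of UUUCAGU, a seed that 0 names of the RefSeq table have. The star forms of Mir30b and Mir30d are not in that table. The mean was 24.8% ± 1.77 in FCx (SD, n = 3) and 25.6% ± 2.06 in HP, a difference of -0.825 percentage points (exact permutation test, two-sided, p = 0.8). At the 3′ arm of Mir30e, whose sequence has the same first 17 bases, 1.90% of all reads started there. Read lengths were not compared, since 98.7% of the alignments at the hairpins had 22 nt, also those of miR-30c, which has 23.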

How the data were processed

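Small RNA of 15-35 nt was sequenced from 3 libraries of FCx and 3 of HP, each in 2 runs (12 lane files). According to the methods of the study, the authors sorted reads by index, trimmed index and 3′ adaptor, discarded adaptor dimers, reads under 14 nt and those of mitochondrial or ribosomal origin, and mapped what was left by Bowtie, allowing 2 mismatches. The deposited counts are whole reads per mature miRNA of miRBase 11, which the authors did not normalize. The genome alignment files hold other values, the start, end and strand of alignments to NCBIM37 as deposited by the authors, and those of 18 to 26 nt on a hairpin's strand were used.

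Here the runs of a library were summed. FCx and HP were compared with edgeR 4.0.16 (R 4.3.3, quasi-likelihood test, TMM, Benjamini-Hochberg) on miRNAs whose counts summed to 2 or more in FCx or in HP, and all adjusted p of miRNAs come from it unless named otherwise. Labels give the index of each replicate number. Deviations from the region's mean log2 CPM (prior count of 2) correlated with r = 0.796, 0.846 and 0.854 between libraries of the same index and with -0.618 to -0.226 between others, so the index was also fitted as a block. Shares were compared with exact permutation tests over libraries, not paired by index (scipy 1.17.1), and the adjusted p covers 12 quantities. Alternatives were DESeq2 1.42.0, other scalings, filters, runs, lane files as samples, and libraries left out. The blocked fits with libraries, runs or summed members varied were added after seeing the data. Tests were tried on simulated counts. Python 3.11.15, pandas 2.3.3, numpy 2.4.6 and matplotlib 3.10.9 served for the rest.

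Named miRNAs are the 5 members, their star forms, miR-384-5p and, per member, the 3 other miRNAs most correlated in log2 CPM (prior count of 0.5). Members, lists and tests were chosen with earlier results of these data known. miR-30b, miR-30d, miR-30b* and miR-30d* are named without sequence.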

Additional observations from a re-analysis of the deposited data

Results flagged for a closer look

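For 3 miRNAs of the family's hairpins, the direction of FCx against HP was opposite between indexes in both runs of each library. The differences between the indexes were not tested. miR-30e had a log2 ratio of FCx over HP of 0.22 with index 3 and -0.38 with index 11, a difference of 0.59. Its exact counting intervals overlapped between the regions in both indexes. With index 3 they were 343 to 472 CPM in FCx and 327 to 368 CPM in HP. With index 11 they were 55.6 to 99.3 CPM (49 counts) and 88.3 to 108 CPM. miR-30a* had 0.78 with index 3, -1.89 with index 7 and 0.56 with index 11, so that index 3 exceeded index 7 by 2.68 and index 7 minus index 11 was -2.45. For miR-30e* the log2 ratio was -2.51 with index 7 and 0.55 with index 11, and index 7 minus index 11 gave -3.06. Both star forms rest on the low counts of the FCx library with index 7 (386 of miR-30a* and 136 of miR-30e*). Their exact counting intervals did not overlap with index 7. For miR-30a* they were 238 to 292 CPM in FCx and 956 to 1011 CPM in HP. For miR-30e* they were 78.1 to 110 CPM in FCx and 513 to 554 CPM in HP. Groups of 3 libraries are too small for a check of single outlying libraries.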

How the results depend on the processing

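The number of miRNAs called between FCx and HP was 2 without a block and depended on the fit. It was 77 with the replicate block and TMM and 56 with the replicate block and library totals, and in blocked fits added after seeing the data 82 with miR-30a and miR-30e summed, 30, 41 and 51 without index 3, 7 and 11, 68 with the individual and 46 with the pooled lanes. With library totals it was 32, 73 and 29 without index 3, 7 and 11 and 41 with either kind of lane. Without a block it was 8 with no filter, 14 with edgeR's exact test on lane files, 15 with lane files as samples, 12 with DESeq2, and 0 with the pooled lanes (edgeR, where 18 had an unadjusted p under 0.05). Leaving out 1 library gave 0 to 7: 0 without the HP library of index 3 or of index 11 (14 and 17 at an unadjusted p under 0.05), and 7 without the FCx library of index 11 or the HP library of index 7. The log2 fold change of the members turned only in fits where it did not pass. With 1 library left out it ran from 0.36 to 0.90 for miR-30a (highest without the FCx library of index 11), from -1.84 to -0.10 for miR-30b (lowest without the FCx and highest without the HP library of index 3), from -1.43 to 0.46 for miR-30c, from -0.022 to 1.53 for miR-30d and from -0.72 to 0.43 for miR-30e. For miR-30e it was also 0.022 with edgeR's exact test on lane files and 0.066 in the blocked fit without index 11 (0.056 with library totals). The sum of miR-30a and miR-30e, most of which is miR-30a, was at 0.40 and, blocked, at 0.37. miR-30a alone was at 0.41 and 0.37 in these fits. For miR-30a* the share of reads starting 1 base downstream in FCx was 21.1% with the pooled lanes, and 23.8% to 25.5% with 1 library left out. The index calls stayed between 210 and 269 miRNAs, and the family and arm shares moved by less than 1 SD. The causes were not tested. Depth limits miR-30b and the rarer star forms in FCx, and miR-30b and miR-30d could not be included in the sum of close members.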
